A study of Danio rerio with 4 samples.

Results

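Small heat shock proteins, heat shock factors and the cochaperone Bag3 were examined in whole zebrafish embryos. Their genes were taken as every array feature whose zebrafish symbol begins with hspb or is hsf1, hsf2 or bag3, and every feature without a symbol whose human ortholog is an HSPB gene, HSF1, HSF2 or BAG3. On the names as printed in the authors' deposited table, 12 of 37176 features met this rule, 6 by zebrafish symbol and 6 by human ortholog. A further 7 carried an older name or an accession of a gene whose current symbol meets it, which gave 19 features in all. The pair of features of hsf2 held identical values on every array, so 18 features carried values of their own. They covered 10 genes with a zebrafish symbol, and 4 features were left with a human ortholog name alone. No feature was matched to hspb6 or, by zebrafish symbol, to hspb1.

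The study measured total RNA on 4 arrays labelled with Cy3, 2 of embryos carrying Tg(hsp70-hRASG12V) and 2 of wild-type embryos. Sample titles mark the wild-type arrays as ab and the transgenic arrays as ras. The transgene places a mutant human RAS gene behind the heat-inducible hsp70 promoter, and the design text calls these embryos heterogeneous. Embryos of both genotypes grew at 28.5 °C. A heat shock of 37 °C lasting 1 h was given at an age of 24 hours, after which they stayed at 28.5 °C until RNA was taken at 30 hours of age from pools of 50 embryos per array. The design text gives 3 biological replicates, and 2 arrays per genotype were analysed here. Both groups were heat shocked, so induction by heat itself was not measured, and differences of clutch or genetic background cannot be told apart from those of the transgene. Because whole embryos were used, fewer cells of a type and less RNA per cell cannot be told apart.

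Small heat shock proteins share an alpha-crystallin domain, assemble into large oligomers and hold unfolding proteins in a soluble state without using ATP. Many are abundant in muscle and heart, where they guard the contractile apparatus. Heat shock factor 1, the product of hsf1, is the main transcription factor that switches on chaperone genes after heat, and heat shock factor 2 can form mixed trimers with it. BAG3 bridges HSP70 and small heat shock proteins, HSPB8 above all, and in mammals directs damaged muscle proteins to autophagy.

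Within this group, the transgenic embryos had lower signal for the feature with the human ortholog HSPB8, for 1 feature of hspb8 and for 1 feature of hsf1, and higher signal for 1 feature with the human ortholog HSPB1. The HSPB8-ortholog feature was 3.12-fold lower, feature A of hspb8 1.66-fold lower and 1 hsf1 feature 3.35-fold lower, while the HSPB1-ortholog feature was 3.62-fold higher (limma, n = 2 arrays per genotype). The last 2 folds involve a group mean under the lowest 25th percentile of an array, where an unknown share of signal is background, so their sizes are uncertain. The bag3, hspb2, hspb3, hspb7, hspb9l, hspb11, hspb15 and hsf2 features did not pass. Neither did feature B of hspb8, the brighter HSPB1-ortholog feature A, features B, C and D of hsf1 or the HSF1-ortholog feature. In all, 4 of the 19 features passed an adjusted p of 0.05, 1 higher and 3 lower. Over the whole array 17.6% of features passed, 10.3% higher and 7.28% lower, so 21.1% of the features called here is close to that background. The median difference of the 19 features was -0.25 on the log2 scale (-0.22 with the hsf2 pair counted once), against 0.0068 over all features. With each array centred on its median, the calls over all features moved to 3316 higher and 3630 lower, against 3830 higher and 2708 lower on the values as deposited. Without either transgenic array, 0 of the 37176 features and 0 of the 19 passed.

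**Figure D1:**
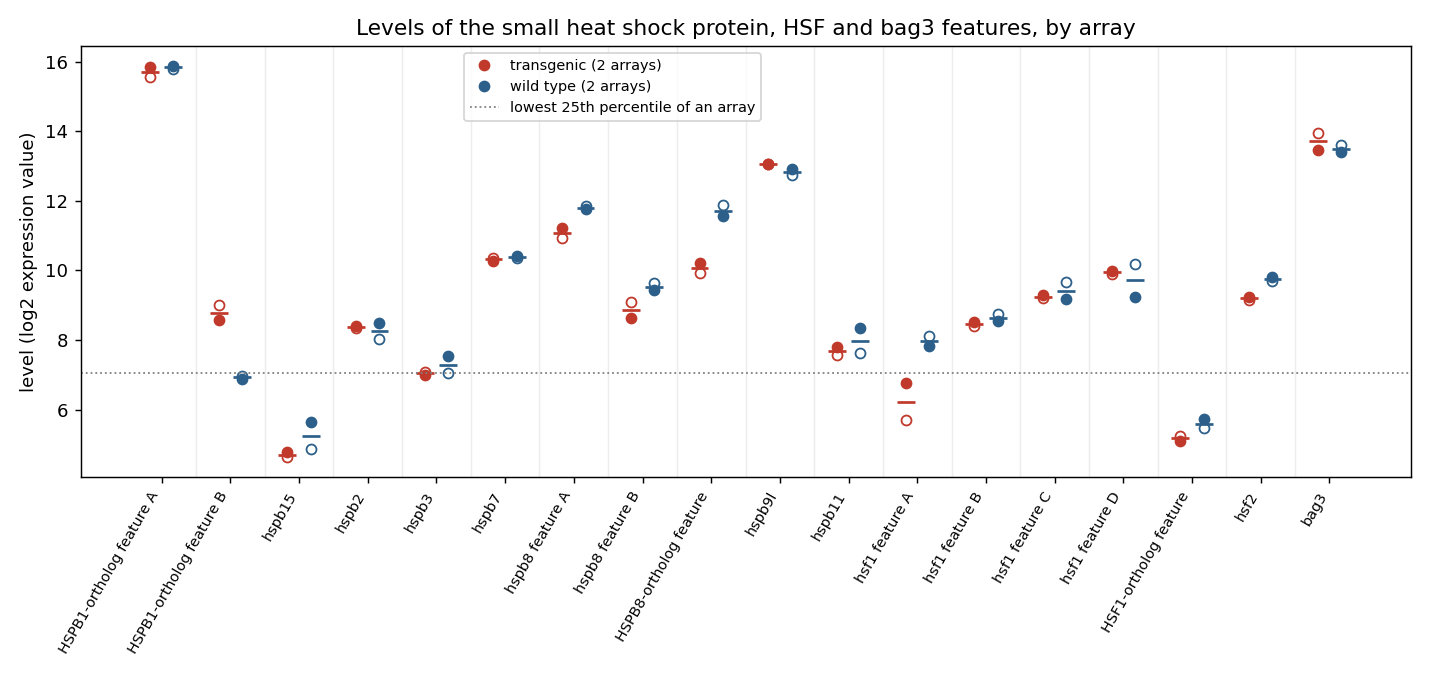
Level of each of the 18 features with values of their own on each array (vertical axis, log2 expression value), with transgenic arrays left and wild-type arrays right in each column, replicate 1 filled, replicate 2 open and group means as bars. The groups stand clearly apart in the HSPB1-ortholog feature B, in the HSPB8-ortholog feature and in hsf1 feature A, and heights of different features cannot be compared because each has its own probes.

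Array medians were 9.61 and 9.62 for the transgenic arrays and 9.5 to 9.55 for the wild-type arrays (log2). The wild-type arrays differed more from each other than the transgenic arrays did, with a median gap per feature of 0.14 between the transgenic and 0.24 between the wild-type arrays over all features. Among the 18 features the medians of this gap were 0.14 and 0.25. Values carry no detection call, and an unknown share of signal near the bottom of the range is background. A group mean lay below the lowest 25th percentile of an array (7.05) for 5 of the 19 features: the HSPB1-ortholog feature B in the wild-type arrays, hspb3 and hsf1 feature A in the transgenic arrays, and hspb15 and the HSF1-ortholog feature in both genotypes.

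The small heat shock protein HSPB8 works with BAG3. The gene hspb8 had 2 features by RefSeq name, and 1 more feature carried the human ortholog HSPB8 alone, which does not settle which zebrafish gene it measures. The HSPB8-ortholog feature (BC057441.1), which carries no zebrafish symbol in the file, stood at 10.22 and 9.93 in the transgenic arrays, against 11.56 and 11.88 in the wild-type arrays. Both transgenic arrays lay more than 1 log2 unit below both wild-type arrays. The difference was -1.64 ± 0.19 (log2 ± SE, n = 2 arrays per genotype; limma adjusted p = 0.013), with a 95% interval from -2.15 to -1.14.

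The pair of features named hspb8 in RefSeq, printed as zgc:64202 in the file, lay on the same side of 0. Feature A (OTTDART00000019051) read 11.23 and 10.94 in the transgenic arrays, against 11.76 and 11.86 in the wild-type arrays, a difference of -0.73 ± 0.17 (adjusted p = 0.045). Feature B (OTTDART00000022842) read 8.65 and 9.09 in the transgenic arrays, against 9.44 and 9.63 in the wild-type arrays. Its groups did not overlap either, and its difference of -0.66 ± 0.20 did not pass (adjusted p = 0.086). Both transgenic arrays lay below both wild-type arrays in all 3 features, 2 of which passed. Over all features, 33.1% lay below in this way and 7.28% were called lower. The 3 features may measure the same gene, so their agreement may not be independent. The intervals of features A and B ran from -1.16 to -0.30 and from -1.19 to -0.14, and whether the HSPB8-ortholog feature differs from them in size was not tested. Without transgenic replicate 1 or 2, the HSPB8-ortholog feature differed by -1.79 and -1.50 (adjusted p = 0.091 and 0.090), and hspb8 feature A by -0.87 and -0.59 (adjusted p = 0.18 and 0.29).

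Human HSPB1, also called HSP27, is a stress-inducible small heat shock protein that binds actin filaments and misfolded proteins. The file gives it as the ortholog of 3 features, 1 of which RefSeq names hspb15 by its accession, so the ortholog column does not settle which zebrafish gene the others measure. Feature A (ZV700S00000659) was at 15.84 and 15.58 in the transgenic arrays, against 15.89 and 15.80 in the wild-type arrays. These levels lie just under the highest value on any array (16.04) and the groups overlapped, with a difference of -0.14 ± 0.16 (adjusted p = 0.58). Signal so close to the top of the scale may understate a difference, and this was not tested.

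Feature B with the ortholog HSPB1 (ENSDART00000081225) read 8.58 and 9.005 in the transgenic arrays, against 6.89 and 6.98 in the wild-type arrays. It was the single feature of the group called higher by limma, at 1.86 ± 0.19 (adjusted p = 0.011, 95% interval from 1.36 to 2.36). Both of its transgenic arrays lay above both wild-type arrays. Its wild-type signal lay under the lowest 25th percentile of an array, so the size of the rise is uncertain, and with log2(value + 50) it was 1.52 (adjusted p = 0.013). Without transgenic replicate 1 or 2 the difference was 2.07 and 1.64 (adjusted p = 0.085 and 0.076). The feature hspb15, a further small heat shock protein gene, was at 4.78 and 4.64 in the transgenic arrays, against 5.63 and 4.87 in the wild-type arrays. Its difference of -0.55 ± 0.28 did not pass (adjusted p = 0.23), and 1 wild-type array set it. It was -0.17 without wild-type replicate 1 (adjusted p = 0.48) and -0.93 without wild-type replicate 2 (adjusted p = 0.016), all at levels under the lowest 25th percentile.

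**Figure D2:**
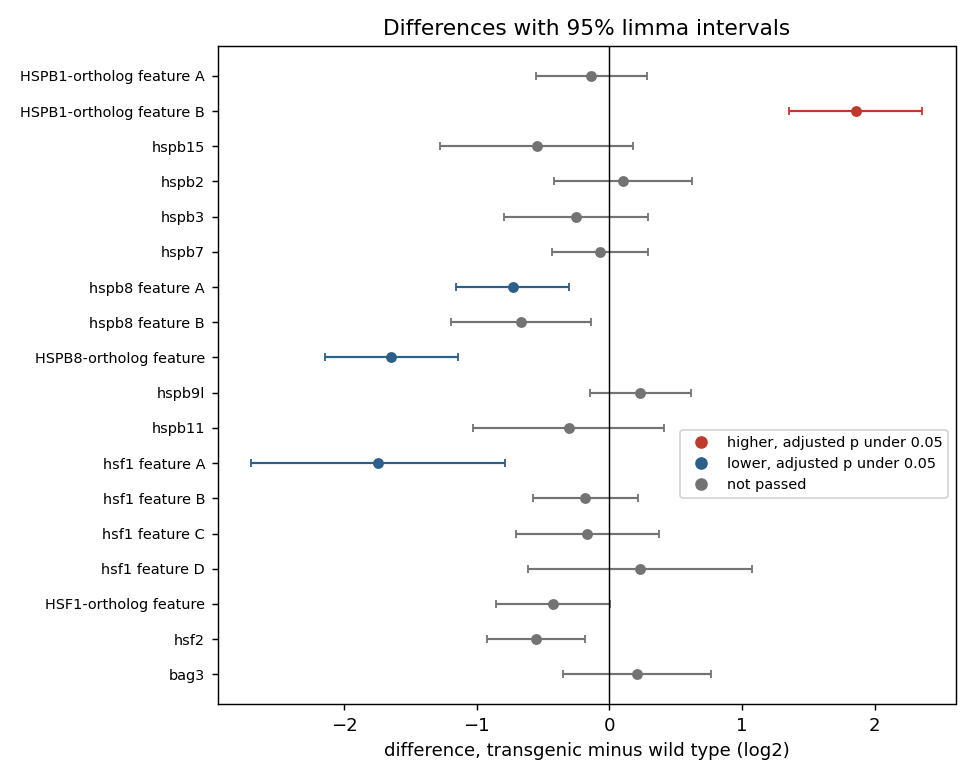
Difference between transgenic and wild-type embryos for each of the 18 features (horizontal axis, log2), with points at the limma estimate and bars for its 95% interval. The HSPB1-ortholog feature B lies at 1.86 on the right, and hspb8 feature A, the HSPB8-ortholog feature and hsf1 feature A lie left of 0 with calls.

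Of the remaining small heat shock protein genes, hspb7, hspb2 and hspb3 are known in mammals mostly from muscle. For hspb7, which encodes a heart and skeletal muscle member that binds filamin, the transgenic arrays read 10.26 and 10.37, against 10.41 and 10.37 in the wild-type arrays. Its difference was -0.07 ± 0.14 (adjusted p = 0.74), with an interval from -0.43 to 0.29, and the difference was -0.16 ± 0.15 with arrays centred on their medians. For hspb2, whose mammalian product forms a complex with that of HSPB3 in muscle, the transgenic arrays read 8.39 and 8.34, against 8.49 and 8.03 in the wild-type arrays. The groups overlapped and the difference was 0.11 ± 0.20 (adjusted p = 0.74), with a change of sign to -0.13 without wild-type replicate 2.

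For hspb3 the transgenic arrays read 6.99 and 7.09, against 7.54 and 7.05 in the wild-type arrays, and the difference of -0.25 ± 0.21 did not pass (adjusted p = 0.43). It was -0.0048 without wild-type replicate 1 and -0.4997 without wild-type replicate 2 (adjusted p = 0.99 and 0.064). The gene hspb9l, which older annotation called hspb11, was at 13.06 on both transgenic arrays, against 12.91 and 12.73 in the wild-type arrays. Its transgenic arrays stood above its wild-type arrays, but by 0.24 ± 0.15 without passing (adjusted p = 0.30), with an interval from -0.14 to 0.61.

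The feature that RefSeq now names hspb11 is printed with the human ortholog C1orf41, a former symbol of human HSPB11. That protein is the intraflagellar transport subunit IFT25, which works in cilia and differs in function from the chaperones above. Its feature read 7.79 and 7.57 in the transgenic arrays, against 8.35 and 7.62 in the wild-type arrays. The difference was -0.31 ± 0.28 (adjusted p = 0.46), and 1 wild-type array set it: without wild-type replicate 1 it was 0.06, and without wild-type replicate 2 it was -0.67 (adjusted p = 0.042).

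Heat shock factor genes gave 1 call among the 6 features with values of their own, beside 17.6% called over all features. The features of hsf1 disagreed. Feature A (OTTDART00000020400) read 6.75 and 5.71 in the transgenic arrays, against 7.82 and 8.13 in the wild-type arrays, a difference of -1.74 ± 0.37 (adjusted p = 0.039). The transgenic arrays were 1.04 apart from each other, the widest gap between transgenic arrays in the group, and their mean lay under the lowest 25th percentile of an array. The interval ran from -2.70 to -0.79, and with log2(value + 50) the difference was -1.25 (adjusted p = 0.035). The difference was -2.26 without transgenic replicate 1 and -1.22 without transgenic replicate 2 (adjusted p = 0.085 and 0.12), and the call also ended without wild-type replicate 2 (-1.59, adjusted p = 0.05003).

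The other features of hsf1 by symbol did not pass. Feature B (OTTDART00000031863) read 8.52 and 8.41 in the transgenic arrays, against 8.54 and 8.74 in the wild-type arrays, a difference of -0.18 ± 0.15 (adjusted p = 0.44). Feature C (OTTDART00000031864) read 9.30 and 9.20 in the transgenic arrays, against 9.17 and 9.66 in the wild-type arrays, a difference of -0.16 ± 0.21 (adjusted p = 0.60). Feature D (OTTDART00000031865) was at 9.999 and 9.89 in the transgenic arrays, against 9.25 and 10.18 in the wild-type arrays. Its groups overlapped, and its difference of 0.23 ± 0.33 (adjusted p = 0.64) became -0.23 without wild-type replicate 1 and 0.70 without wild-type replicate 2, where it passed (adjusted p = 0.030). The HSF1-ortholog feature without a symbol (ENSDART00000078074) read 5.11 and 5.25 in the transgenic arrays, against 5.74 and 5.46 in the wild-type arrays, a difference of -0.42 ± 0.17 with both group means under the lowest 25th percentile (adjusted p = 0.14). The 95% intervals of features B, C and D all held 0, and the widest, that of feature D, ran from -0.62 to 1.08.

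For hsf2 the transgenic arrays read 9.24 and 9.16, against 9.81 and 9.69 in the wild-type arrays. The groups did not overlap and lay closer within than between genotypes, and the difference of -0.55 ± 0.14 (1.47-fold lower, interval from -0.92 to -0.18) stood just outside the threshold (adjusted p = 0.061). It passed under both other array scalings, at -0.64 under quantile normalization (adjusted p = 0.044) and -0.64 with arrays centred on their medians (adjusted p = 0.046). It also passed without features below the 25th percentile (adjusted p = 0.036) and with log2(value + 50) (adjusted p = 0.040). It did not pass with a trended or a robust prior (adjusted p = 0.063 in both) or with a block for replicate number (adjusted p = 0.067). The difference was -0.49 and -0.61 without wild-type replicate 1 and 2, and -0.59 and -0.51 without transgenic replicate 1 and 2.

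The cochaperone gene bag3 is itself a target of heat shock factor 1. Its feature read 13.47 and 13.96 in the transgenic arrays, against 13.39 and 13.62 in the wild-type arrays. The groups overlapped, and the difference of 0.21 ± 0.22 (adjusted p = 0.52) had an interval from -0.35 to 0.77. It was -0.03 without transgenic replicate 2. The lower signal of hspb8 feature A stood beside a bag3 signal without a call, and a difference between those changes was not tested. Over the 4 arrays, the genes with a symbol whose centred pattern lay nearest to that of bag3 among 11096 were cnksr1, acbd5a and a2m2b, at Euclidean distances of 0.055, 0.072 and 0.073 log2 units. The feature of a2m2b lay under the lowest 25th percentile on every array. With 4 arrays and a small change, this likeness is a description of these arrays alone.

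**Figure D3:**
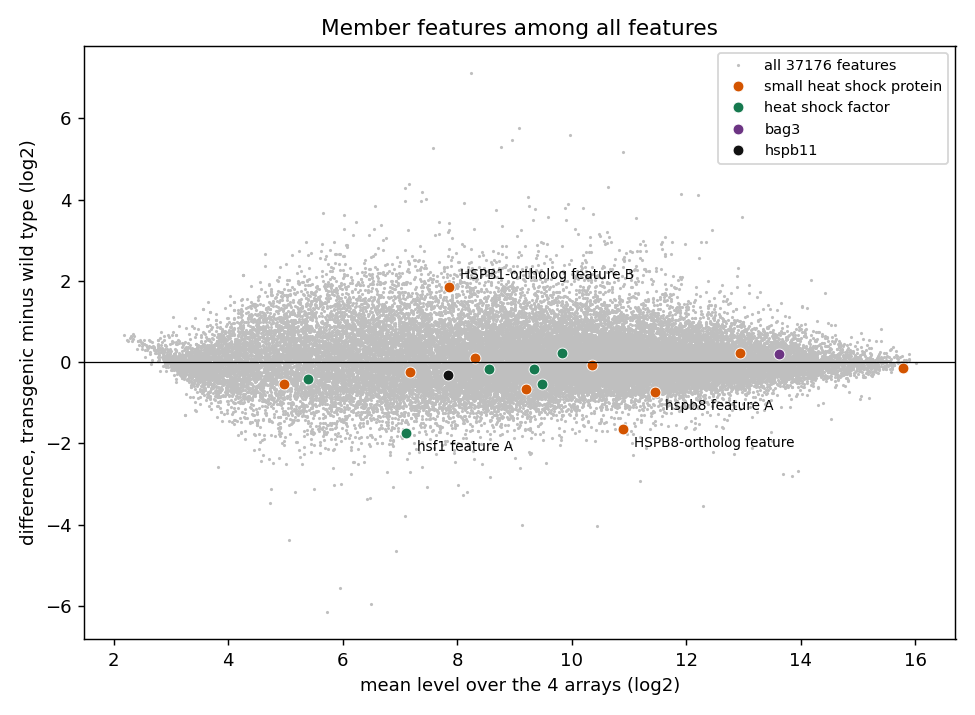
Difference between transgenic and wild-type embryos (vertical axis, log2) against mean level over the 4 arrays (horizontal axis, log2), with all 37176 features in grey and the 18 features with values of their own coloured by role. The HSPB8-ortholog feature at -1.64 and hsf1 feature A at -1.74 lie below 0, where the cloud reaches down to -6.16. The HSPB1-ortholog feature A lies near the top of the scale at -0.14.

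Counted by array, 9 of the 19 features had both transgenic arrays below both wild-type arrays, 2 had both above and 8 overlapped (8 of 18 below with the hsf2 pair counted once). Over all features these shares were 33.1% below and 34.4% above. By q-values under 0.05 in the authors' deposited table, 11 of the 19 features were called, 3 higher and 8 lower (10 of 18 with the hsf2 pair counted once). But so were 67.7% of all features, 34.9% higher and 32.7% lower. The deposited q-value was 0.00027 for hsf2, 0.00021 for hspb8 feature B and 0.0074 for bag3 in the authors' deposited table, each of which missed the threshold in limma. How those q-values were computed is not stated.

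**Figure D4:**
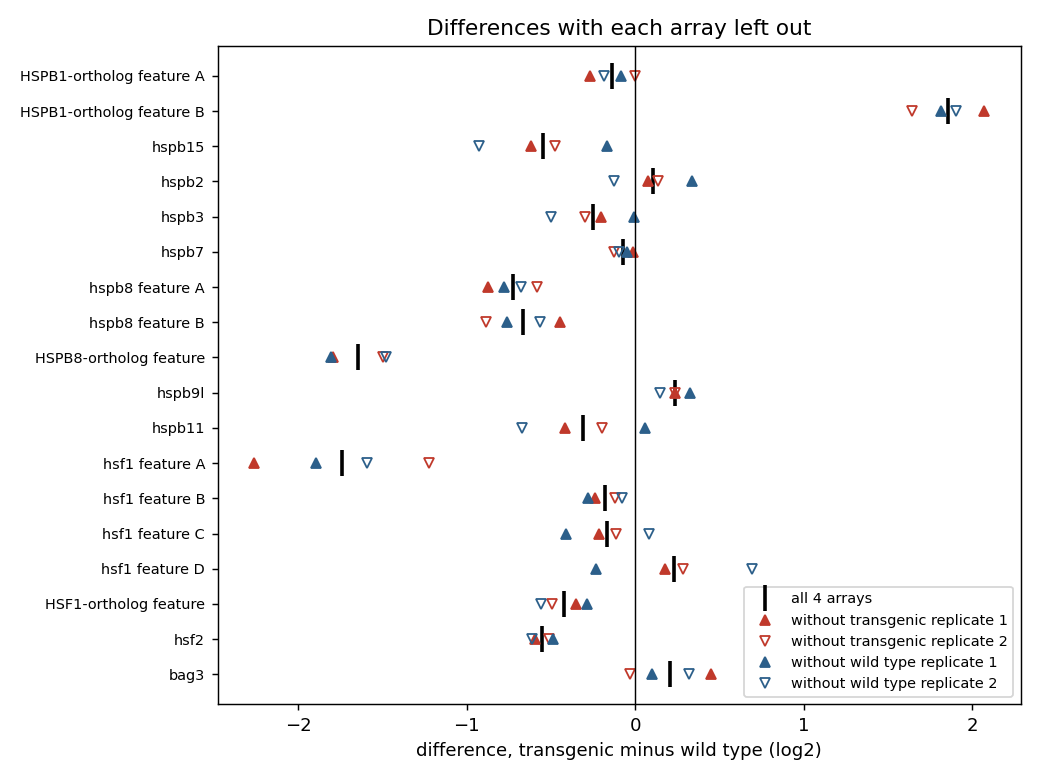
Difference between transgenic and wild-type embryos (horizontal axis, log2) for each of the 18 features, with all 4 arrays (black bar) and with 1 array left out (triangles, red for a transgenic and blue for a wild-type array). The features of hspb2, hspb11, hsf1 (C and D) and bag3 cross 0 when an array is left out. All other features keep their side of 0, those without a call included, some of them only narrowly.

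The wider heat shock response was read from a list of other chaperone genes. Of 51 listed genes, 33 were measured by at least 1 feature. Most belong to the HSP70, HSP90, HSP60, HSP10 and HSP40 families or are their cochaperones. The 33 also include the HSF-binding gene hsbp1b and the genes serpinh1a and serpinh1b, which lie outside these families. By the brightest feature per gene, 13 of the 33 fell, 1 rose and 19 did not pass, with a median of -0.37. The 13 include serpinh1a (-0.99) and serpinh1b (-1.09). Over all features of the array, dim ones included, 7.28% were called lower and 10.3% higher. In the fit without features below the median, 2455 of 18588 features were called lower and 2865 higher. In that fit 16 of 37 features of the listed genes were called lower and 3 higher. The genes with the smallest p were hsp70.3, hsp70, chordc1a and hsp90b1. The inducible HSP70 gene hsp70.3 read 12.15 and 12.48 in the transgenic arrays, against 14.84 and 15.32 in the wild-type arrays, and has near-identical copies that may share its signal. The HSP90 cochaperone gene chordc1a read 9.715 and 9.915 in the transgenic arrays, against 11.17 and 11.46 in the wild-type arrays (-1.50 ± 0.18). The gene that rose was dnajb6b, an HSP40 cochaperone gene of the kind that suppresses protein aggregation (0.89 ± 0.15, adjusted p = 0.024), named after its value was seen. In all, 24 of the 33 genes lay below 0, as did 18404 of the 37176 features of the array.

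Genes that act on heat shock factors gave 0 calls among 4 measured of 8 listed (limma; 1 at an unadjusted p under 0.05, and 2 by the deposited q-value). They were hsf2bp, which encodes a partner of HSF2 (-0.45 ± 0.16, adjusted p = 0.11, with levels under the lowest 25th percentile of an array), the deacetylase gene sirt1 (-0.22 ± 0.15), daxx (-0.02 ± 0.17) and the HSF-binding gene hsbp1b (0.01 ± 0.19). Among BAG genes and BAG3 partners, 6 of 18 listed were measured, 1 fell and 0 rose (limma; 2 at an unadjusted p under 0.05, and 6 by the deposited q-value). Over all features 17.6% passed, 13726 of 37176 had an unadjusted p under 0.05, and 67.7% passed by the deposited q-value. In 5 of the 6 both transgenic arrays lay above both wild-type arrays, and in 1, bag2, both lay below. Over all features these shares were 34.4% above and 33.1% below. The cochaperone gene bag2 read 10.84 and 10.96 in the transgenic arrays, against 11.80 and 12.07 in the wild-type arrays. It fell by 1.03 ± 0.16 (adjusted p = 0.023), and its other feature differed by -0.56 (adjusted p = 0.086). The filamin gene flncb, whose product is a BAG3 client in muscle, differed by 0.82 ± 0.27 (adjusted p = 0.095), the autophagy gene map1lc3b by 0.24 ± 0.14 and bag5 by 0.22 ± 0.14.

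The alpha-crystallins are small heat shock proteins that the naming rule leaves out. Their 3 genes gave 0 calls (limma; 0 at an unadjusted p under 0.05, and 2 by the deposited q-value). Over all 37176 features the last 2 counts were 13726 and 25150. The difference was 0.65 ± 0.29 for cryaba, 0.34 ± 0.16 for cryabb and -0.49 ± 0.26 for cryaa, the first 2 of them under the lowest 25th percentile in both genotypes. In RefSeq, cryabb overlaps hspb2, and neither passed.

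**Figure D5:**
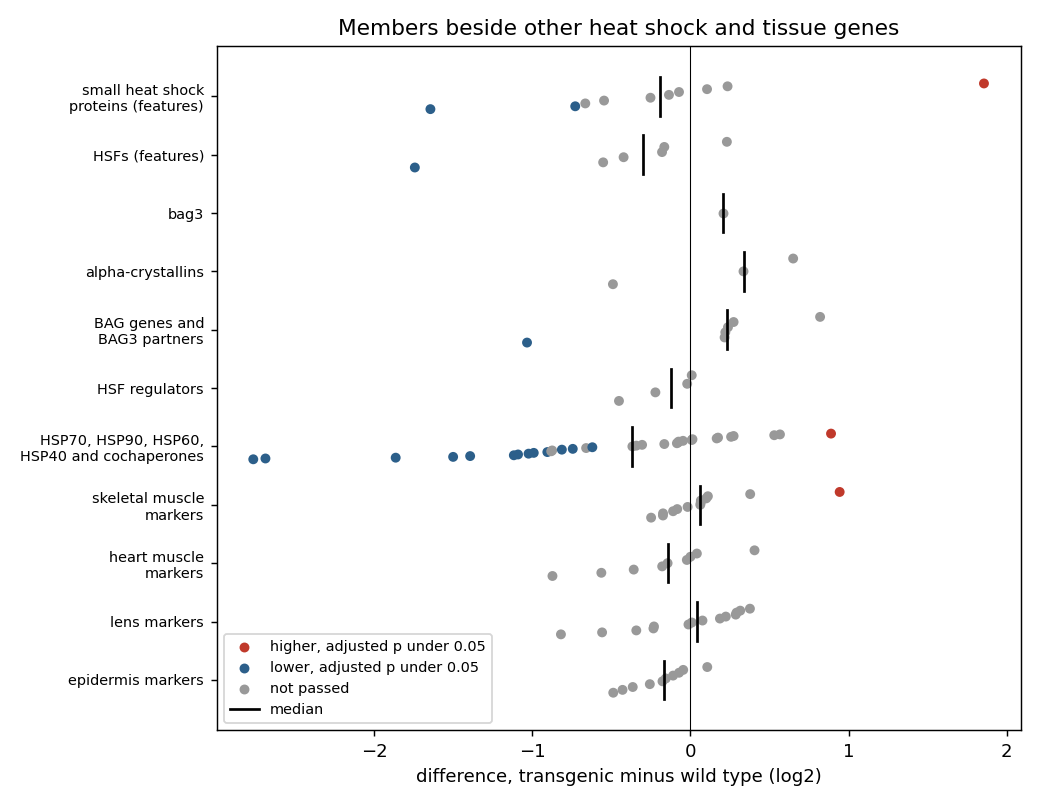
Differences between transgenic and wild-type embryos (horizontal axis, log2) for the features described here by role, without hspb11, and for other gene lists by their brightest feature per gene. Medians are black bars and calls are coloured. The list of other chaperone genes has 13 of 33 genes called lower and 1 called higher. Over all features, dim ones included, 7.28% were lower and 10.3% higher. The muscle, heart, lens and epidermis markers all lie within 1 log2 unit of 0.

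Markers of the tissues in which small heat shock proteins are abundant were read beside these results. Of 13 skeletal muscle markers measured of 22 listed, 1 rose, the fast myosin gene myhz2 (0.94 ± 0.18), and 0 fell (limma; 2 at an unadjusted p under 0.05, and 5 by the deposited q-value). Over all features 10.3% were called higher, and 6 of the 13 markers lay below 0. An unadjusted p under 0.05 was reached by 13726 of all 37176 features, and 67.7% passed by the deposited q-value. The log2 of the summed level of the 13 was 18.66 to 18.76 in the transgenic arrays and 18.67 in the wild-type arrays. Of 9 heart muscle markers measured of 11 listed, 0 passed (limma; 3 at an unadjusted p under 0.05, and 5 by the deposited q-value), with sums of 15.77 to 15.83 in the transgenic arrays and 15.97 to 15.98 in the wild-type arrays. The 3 were tnnt2a (-0.56 ± 0.14, adjusted p = 0.055), myh6 (-0.87 ± 0.24, adjusted p = 0.068) and nppa (0.41 ± 0.16, adjusted p = 0.13). Of the 9 heart markers, 6 lay below 0 and 3 above. The feature of actc1a alone read 15.44 and 15.35 in the transgenic arrays, against 15.55 and 15.59 in the wild-type arrays. It made up most of the heart sum, to which the dimmer heart markers added little. The heart gene myl7 lay under the lowest 25th percentile in both genotypes. Of 14 lens markers measured of 17 listed, 0 passed (1 at an unadjusted p under 0.05, and 11 by the deposited q-value), with sums of 16.32 to 16.43 in the transgenic arrays and 16.23 to 16.49 in the wild-type arrays. Of 10 epidermis markers measured of 11 listed, 0 passed (2 at an unadjusted p under 0.05, and 6 by the deposited q-value), with sums of 18.07 to 18.09 in the transgenic arrays and 18.21 to 18.28 in the wild-type arrays. Of the 10, 9 lay below 0. In 6 both transgenic arrays lay below both wild-type arrays, against 33.1% of all features. All these sums add values on the linear scale, so the brightest features weigh most. Several muscle and epidermis features, such as mylpfa and krt4, read close to the highest value (16.04), where a difference may be understated. The sums therefore do not measure tissue content. Over every feature of the listed genes rather than the brightest, 3 of 19 lens and 2 of 16 epidermis features were called lower. On the whole array this share was 7.28%. The lens calls were all features of cryba1a, 2 of them with the same difference (-0.71). The epidermis calls were a feature of cyt1 (-1.18) and a feature of krt5 (-0.58), neither the brightest of its gene. The part of tissue composition in the HSPB8-ortholog, hspb8 and hsf1 differences was not tested.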

How the data were processed

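Total RNA of whole embryos was extracted with Trizol and labelled by Roche NimbleGen, per the labels. The authors deposited log2 expression values for 37176 features on 4 arrays. The highest value (16.04) lies at the log2 limit of a common scanner range, and the log base rests on that. How probes were summarised, background-corrected and normalized is not stated in the labels. The authors also deposited a log fold change with q-values, per the file headers, which give no log base. This fold change equals the difference of group means within 2.8e-08. A companion table that differed in 7 lines was not used.

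Features were named through RefSeq GRCz12tu, by accession (2663 of 3055 RefSeq mRNA features), current symbol (4969), synonym (5744) or gene number (1978), and 5924 retained the file's own symbol. The fit was limma 3.58.1 in R 4.3.3 (lmFit and eBayes; 2 residual and 2.92 prior degrees of freedom, so SEs draw on the spread of all features) with Benjamini-Hochberg over all features at 0.05, and was tested on simulated data. Array number limits the precision. For lists, the brightest feature stood for a gene. Every member was named, and of each pathway list the up to 4 genes with the smallest p. The likeness search fixed for hspb1 was not made, since no feature carried that symbol. Members and lists were chosen with earlier results of these data known. The alternatives were other scalings, filters on low values, eBayes priors, log2(value + 50), a threshold of 0.10, a replicate block, the deposited q-values and leaving out single arrays.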

Additional observations from a re-analysis of the deposited data

How the results depend on the processing

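Of 252 values read for the 19 features under alternatives, 214 kept their direction and their side of the threshold. Another 23 newly passed, 10 no longer passed and 5 changed sign, each of the 5 with 1 array left out. These counts take the hsf2 pair as 2 features, though its values are identical. Of the 23, 3 passed at a threshold of 0.10 and 7 by the deposited q-value, and both settings leave the difference itself unchanged. With single arrays left out, bag3 ranged from -0.032 to 0.45, hspb2 from -0.13 to 0.34, hspb11 from -0.67 to 0.058, hsf1 feature C from -0.41 to 0.080 and hsf1 feature D from -0.23 to 0.70. Of the 19 features, 7 were called at an adjusted p of 0.10, 11 by the deposited q-value, 2 with features below the median left out, which leaves 7 of the 19 in the fit, and 0 to 8 with 1 array left out. With 1 feature per gene with a symbol, an alternative chosen after seeing the data, 1 of 10 was called. Over all features, 11247 passed at an adjusted p of 0.10, 25150 by the deposited q-value and 0 to 12163 with 1 array left out. Of 43 features of the other chaperone genes, 31 were called by the deposited q-value and 0 to 18 with 1 array left out, against 16 with all arrays. Such fits take the spread of a genotype with 1 array from the other genotype, and the cause of these changes beyond the fewer arrays was not tested. No label says that a replicate number marks a shared clutch, batch or day, and with 2 pairs the data do not settle it: deviations from the group means correlated at 0.206 over features between arrays of the same number, and the replicate block gave 3 calls among the 19 (without hspb8 feature A, adjusted p = 0.054), 7291 over all features and 15 among the other chaperone features. Signal at both ends of the scale limits what can be read for hspb15, hspb3, the HSF1-ortholog feature, both HSPB1-ortholog features and hsf1 feature A.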
